A study of Mus musculus with 12 samples.

Results

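The 10 transcripts described here are products of genes by which Kupffer cells and other macrophages are commonly recognized: C1qa, C1qb, C1qc, Cd5l, Clec4f, Adgre1, Csf1r, Cd14, Cd68 and Cd163. They were chosen by gene symbol, and all 10 of 10 were found among the 5545 genes analysed here. NK cells and ILC1 were purified from the livers of 6 female C57BL/6 mice (given as C57BL/6J in the study's methods), with 1 NK cell and 1 ILC1 library per mouse, so that 12 libraries fell into 4 groups of 3. Lean mice received RM1 chow from weaning, and obese mice received a palatable obesogenic diet (45% AFE fat) with condensed milk, each for 12 weeks. Both populations were lineage-negative and NK1.1+, and were separated as CD49a- CD49b+ (NK cells) or CD49a+ CD49b- (ILC1). The lineage cocktail held antibodies to CD3, CD8α and Gr1 among others, and no macrophage antigen is named in it. The identity of both populations rests on these surface markers. The comparisons made here concern the levels of the 10 transcripts in the sorted populations and under the diets, and whether they kept fixed ratios to each other from library to library.

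Kupffer cells are the resident macrophages of the liver sinusoids, where they take up particles, dying cells and bacteria from the blood. They are a main source of C1q, the recognition molecule of the classical complement pathway, which is assembled from A, B and C chains in equal number, and they secrete CD5L (also called AIM), a scavenger receptor family protein that binds lipids. CLEC4F is a C-type lectin largely limited to Kupffer cells in the mouse, F4/80 (the product of Adgre1) marks most tissue macrophages, CSF1R is the receptor for the growth factors CSF1 and IL-34 on which macrophages depend, and CD14 is the co-receptor for lipopolysaccharide. CD68 is a lysosomal glycoprotein that is abundant in macrophages and present at lower levels in other leukocytes, and CD163 is the scavenger receptor for complexes of haptoglobin and hemoglobin.

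Over the genes analysed here the libraries held between 1666637 and 2826766 counts, and between 1948 and 3292 genes had at least 1 count. The floor of detection in a library was set at 3 counts, and intervals given below are exact Clopper-Pearson 95% intervals, which cover counting error only. Libraries are named by group and by replicate, 25, 26 or 27, and values are given in that order. Cxcr6, a chemokine receptor gene of ILC1, had between 61 and 855 counts in the NK cell libraries and between 3575 and 23154 in the ILC1 libraries, which fits the labels in all 12. The lowest ILC1 value was that of obese ILC1 26, which also held 87894 counts of the hepatocyte gene Alb against 7 to 497 in the other 11 libraries. Lean NK 27 and obese ILC1 25 had the fewest genes with a count, 1948 and 2014. Where leaving out 1 of these 3 libraries changed a call or moved a value by much, the value without it is given beside the result.

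In the genome build GRCm38, to which mm10 in the submitters' processing notes corresponds, GENCODE places the C1q genes side by side on the minus strand of chromosome 4. C1qb lies at chr4:136880129-136886187, C1qc at chr4:136889804-136893065 and C1qa at chr4:136895917-136898803. Cd5l lies at chr3:87357881-87371073 (plus strand), Clec4f at chr6:83644542-83656187 (minus), Cd163 at chr6:124304656-124330527 (plus), Cd68 at chr11:69664213-69666153 (minus) and Adgre1 at chr17:57358691-57483527 (plus). RefSeq promoters (GRCm38.p6) were at hand for 6 of the 10 genes, C1qb, C1qc, Cd5l, Clec4f, Cd68 and Cd163. The 250 bases before the start are shown for 4 of these because their levels separated as described below: C1qb and Cd5l were highest in the same ILC1 libraries, whereas Cd163 was found in the NK cell libraries and Cd68 in every library. They lie at chr4:136886201-136886450 (minus strand, C1qb), chr3:87357631-87357880 (plus, Cd5l), chr11:69666171-69666420 (minus, Cd68) and chr6:124304401-124304650 (plus, Cd163), and are written in the direction of transcription. Capitals mark GAGGAA, the core bound by the macrophage and B cell factor PU.1, and GTGTGA, a core bound by T-box factors, in either orientation (TTCCTC and TCACAC).
C1qb: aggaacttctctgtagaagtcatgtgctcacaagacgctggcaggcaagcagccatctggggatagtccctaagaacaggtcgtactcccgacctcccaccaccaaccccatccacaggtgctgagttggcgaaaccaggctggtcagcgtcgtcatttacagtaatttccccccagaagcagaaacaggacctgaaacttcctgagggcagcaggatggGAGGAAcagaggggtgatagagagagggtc
Cd5l: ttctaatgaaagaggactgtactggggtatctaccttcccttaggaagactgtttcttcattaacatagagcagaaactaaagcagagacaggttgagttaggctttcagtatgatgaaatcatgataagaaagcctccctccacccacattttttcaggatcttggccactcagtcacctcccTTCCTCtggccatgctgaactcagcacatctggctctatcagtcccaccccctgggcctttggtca
Cd68: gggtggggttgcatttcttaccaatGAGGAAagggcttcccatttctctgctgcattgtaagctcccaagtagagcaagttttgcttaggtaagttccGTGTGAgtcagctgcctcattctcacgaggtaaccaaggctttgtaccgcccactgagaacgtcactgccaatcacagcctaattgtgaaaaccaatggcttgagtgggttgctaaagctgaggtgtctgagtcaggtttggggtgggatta
Cd163: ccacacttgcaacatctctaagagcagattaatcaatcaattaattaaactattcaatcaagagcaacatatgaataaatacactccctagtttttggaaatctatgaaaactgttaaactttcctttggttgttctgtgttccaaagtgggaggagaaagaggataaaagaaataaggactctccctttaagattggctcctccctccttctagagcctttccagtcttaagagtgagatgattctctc
GAGGAA or its complement was found once in C1qb, Cd5l and Cd68, and not in Cd163. C1qc held 1 match and Clec4f none. GTGTGA or its complement was found once, in Cd68, and no 2 matches overlapped. Of the 32851 promoters in the RefSeq table, 23.3% held GAGGAA and 12.3% held GTGTGA in the same window, so that such matches are common. A match is given as a description of the letters only.

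The C1q chains were close to absent from lean NK cells and were highest in obese ILC1. C1qa had 1, 1 and 0 counts in lean NK cells, 5, 2 and 11 in obese NK cells, 34, 20 and 23 in lean ILC1, and 0, 991 and 147 in obese ILC1. C1qc had 0, 1 and 0 counts in lean NK cells, 8, 7 and 4 in obese NK cells, 20, 12 and 20 in lean ILC1, and 0, 695 and 246 in obese ILC1. The ranges of lean NK and lean ILC1 libraries did not overlap for either gene, whereas obese ILC1 spread from the lowest to the highest value of the 12 libraries. C1qb, the chain with the most counts, had 28, 0 and 1 counts in lean NK cells and 67, 22 and 47 in obese NK cells. In ILC1 it had 179, 101 and 0 counts in lean mice and 74, 4252 and 688 in obese mice. The authors' normalized count of C1qb was 9.0 ± 14.7 (SD, n = 3) in lean NK cells, 34.3 ± 19.0 in obese NK cells, 95 ± 92.6 in lean ILC1 and 2679 ± 4145 in obese ILC1. The SD was larger than the mean in obese ILC1 because obese ILC1 26 held most of the counts. The source of the C1q counts was not tested. Were it macrophages, their number and the RNA per macrophage could not be told apart in a bulk library.

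Cd5l and Clec4f, both secreted or displayed by Kupffer cells, followed the C1q chains in part. Cd5l had 0 counts in all 3 lean NK libraries, 22, 29 and 14 in obese NK cells, 47, 72 and 1 in lean ILC1, and 0, 4034 and 690 in obese ILC1. Every obese NK library was therefore above every lean NK library. The mean normalized count in obese NK cells, 15.3 ± 4.73 (SD, n = 3), was 5.26-fold the floor of 3 counts per library in lean NK cells. Clec4f had 0, 23 and 0 counts in lean NK cells, 36, 23 and 0 in obese NK cells, 1, 85 and 1 in lean ILC1, and 250, 5800 and 207 in obese ILC1. All 3 obese ILC1 libraries were above the other 9, and Clec4f was higher in the ILC1 than in the NK cells of 4 of 6 mice, while in lean mice 25 and 27 it was at 1 count against 0, under the floor.

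Adgre1, the F4/80 gene, had 0 counts in all 3 lean NK libraries and 9, 0 and 6 in obese NK cells. In ILC1 it had 0, 30 and 62 counts in lean mice and 520, 2119 and 216 in obese mice. The obese ILC1 libraries did not overlap with those of any other group, and Adgre1 was higher in the ILC1 of 5 of 6 mice, with 0 counts in both libraries of the remaining mouse. The receptor genes Csf1r (chr18:61100598-61132149, plus strand) and Cd14 (chr18:36725067-36726798, minus strand) had counts in 7 and 6 of the 12 libraries. Both were at 0 in lean ILC1 27 and obese ILC1 25, which held 43 and 74 C1q counts. Csf1r had 0 counts in all lean NK libraries, 22, 21 and 9 in obese NK cells, 61, 45 and 0 in lean ILC1, and 0, 5305 and 310 in obese ILC1. Cd14 had 0 counts in all lean NK libraries, 17, 8 and 9 in obese NK cells, 63, 0 and 0 in lean ILC1, and 0, 2068 and 61 in obese ILC1. For both receptors the obese NK libraries lay above all lean NK libraries, whereas the ILC1 groups overlapped with each other. The mean normalized count in obese NK cells was 4.34-fold the floor in lean NK cells for Csf1r and 2.86-fold for Cd14.

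Cd68 was present in all libraries, and Cd163 was found mainly in NK cells. Cd68 had counts in every library, 69, 65 and 423 in lean NK cells, 117, 125 and 141 in obese NK cells, 45, 87 and 65 in lean ILC1, and 745, 3444 and 428 in obese ILC1. The normalized count was 179 ± 196 (SD, n = 3) in lean NK cells, 93.3 ± 11.5 in obese NK cells, 66.7 ± 19.5 in lean ILC1 and 2420 ± 3152 in obese ILC1. Lean NK cells, obese NK cells and lean ILC1 overlapped, and obese ILC1 stood above lean ILC1 and obese NK cells without overlap, as it did for Adgre1 and Clec4f. Cd163 had 157, 72 and 786 counts in lean NK cells and 109, 116 and 90 in obese NK cells, but 0, 2 and 0 in lean ILC1 and 0, 319 and 0 in obese ILC1. All 6 NK libraries held more Cd163 than 5 of the 6 ILC1 libraries, and the exception was obese ILC1 26. The mean normalized count in lean NK cells, 324 ± 373 (SD, n = 3), was 106-fold the floor in lean ILC1, and 36.0-fold without lean NK 27. Lean NK 27, 1 of the sparse libraries, held the highest count of both Cd68 and Cd163 among the NK cells.

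**Figure D1:**
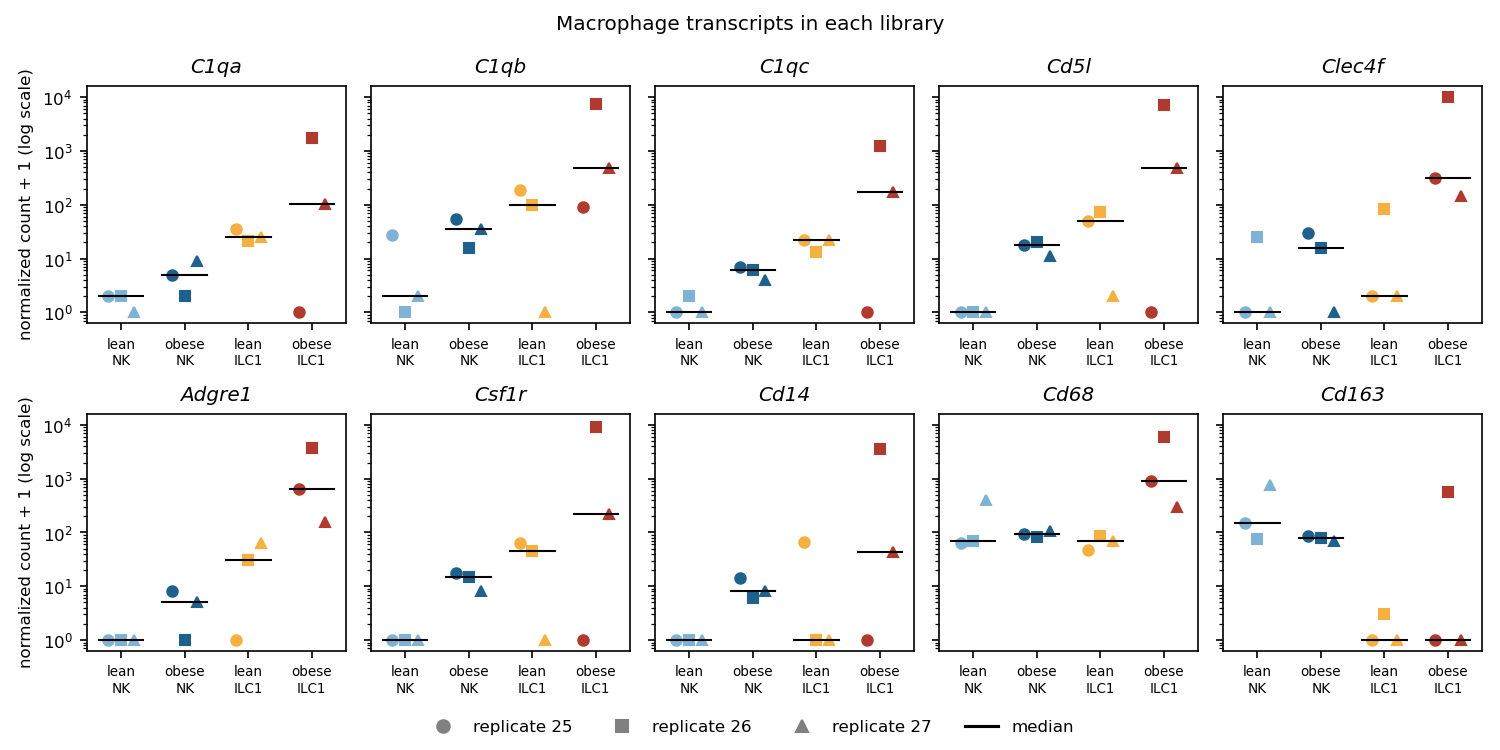
Normalized count plus 1 of each of the 10 transcripts (log axis) in the 4 groups. Each point is 1 library, its shape gives the replicate, and the black line is the group median. Apart from C1qb (28 counts) and Clec4f (23) in 1 library each, 8 transcripts had at most 1 count in lean NK cells, Cd68 was present in all libraries, and Cd163 was present in all NK cells and near 0 in all ILC1 but obese ILC1 26.

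Levels of different genes can be compared only per length, here as the normalized count per kilobase of the union of annotated exons. In lean NK cells the order of the means was Cd68 at 142 ± 156 (SD, n = 3), Cd163 at 59.4 ± 68.3 and C1qb at 8.27 ± 13.5 per kilobase, with Clec4f at 3.24 ± 5.61 and the remaining 6 below 1. Without lean NK 27 the first 3 kept this order, at means of 52.1, 20.1 and 11.9 per kilobase (n = 2). In lean ILC1 C1qb was first, at 87.3 ± 85.1, followed by Cd68 at 53.0 ± 15.5, C1qa at 25.3 ± 7.47 and Cd5l at 19.8 ± 17.6, and Cd163 was last, at 0.122 ± 0.211. In obese ILC1 the means ran from 2463 ± 3810 for C1qb and 1925 ± 2507 for Cd68 down to 34.2 ± 59.2 for Cd163. Without obese ILC1 26 the first pair changed places, with Cd68 at 484 and C1qb at 266 per kilobase (n = 2), and Cd163 was listed at 0. In obese NK cells Cd68 (74.3 ± 9.15) was above C1qb (31.6 ± 17.5) by more than either SD, and Cd163 (14.0 ± 1.74) came next. Apart from that pair, C1qb and Cd163 in obese NK cells, and Cd68 and C1qa in lean ILC1, the neighboring means named here differed by less than the larger of their SDs.

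To ask whether the sorted populations differed, ILC1 were set against NK cells in a quasi-likelihood test of edgeR that used all 12 libraries in 1 model, with the mean of both diets on each side. All 10 transcripts passed the filter on low counts, among 2606 genes in all, and Cd5l, Adgre1, Csf1r and Cd14, at 0 in lean NK cells, passed through the other groups. Calls required a fold change above 2 and, after Benjamini-Hochberg adjustment, a p below 0.05. Of the 10, 3 were called higher in ILC1, against 3.15% of all genes tested, and 0 of 10 were called lower, against 1.19%. The 3 were Adgre1, C1qa and C1qc, which reached 10 counts in at most 1 NK library and so passed the filter through ILC1, and nothing is read from their number. Adgre1 was higher by a log2 fold change of 8.28 ± 1.62 (SE, edgeR adjusted p = 0.0199). C1qa was higher by 6.03 ± 1.44 on the log2 scale (edgeR adjusted p = 0.0327) and C1qc by 5.92 ± 1.39 (edgeR adjusted p = 0.0308). Since these genes were at or near 0 in lean NK cells, the fitted values depend on the model and are not bounds.

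The other 7 transcripts were not called in this comparison. Their log2 fold changes were 4.78 for C1qb, 7.83 for Cd5l, 4.85 for Clec4f, 8.07 for Csf1r, 7.31 for Cd14, 1.6 for Cd68 and -3.75 for Cd163, with edgeR adjusted p between 0.0582 (Cd5l) and 0.233 (Cd163). The median log2 fold change of the 10 was 5.98, beside 0.04 for all genes tested. The count of called transcripts rested on the libraries used. With the mouse as a block, since NK cells and ILC1 came from the same animals, 0 of the 10 were called and Adgre1 had an edgeR adjusted p of 0.165. Without obese ILC1 25, 6 were called, namely Adgre1, the 3 C1q chains, Cd5l and Csf1r, beside 161 of 2809 genes. Without obese ILC1 26, 2 were called, beside 125 of 2698 genes. The 2 transcripts were Adgre1, at a log2 fold change of 7.36 ± 1.64 (SE, edgeR adjusted p = 0.0295), and Cd163. Cd163 was lower in ILC1 by a log2 fold change of -9.07 ± 1.36 (SE, edgeR adjusted p = 0.00256), and passed the filter on low counts through NK cells. Without lean NK 27 only Adgre1 of the 10 was called, beside 114 of 2796 genes. Leaving out lean NK 25, lean NK 26, any obese NK library, lean ILC1 26 or lean ILC1 27 left 0 called, and leaving out lean ILC1 25 left 1. With any 1 library left out, the number of all genes called ran from 63 to 161.

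**Figure D2:**
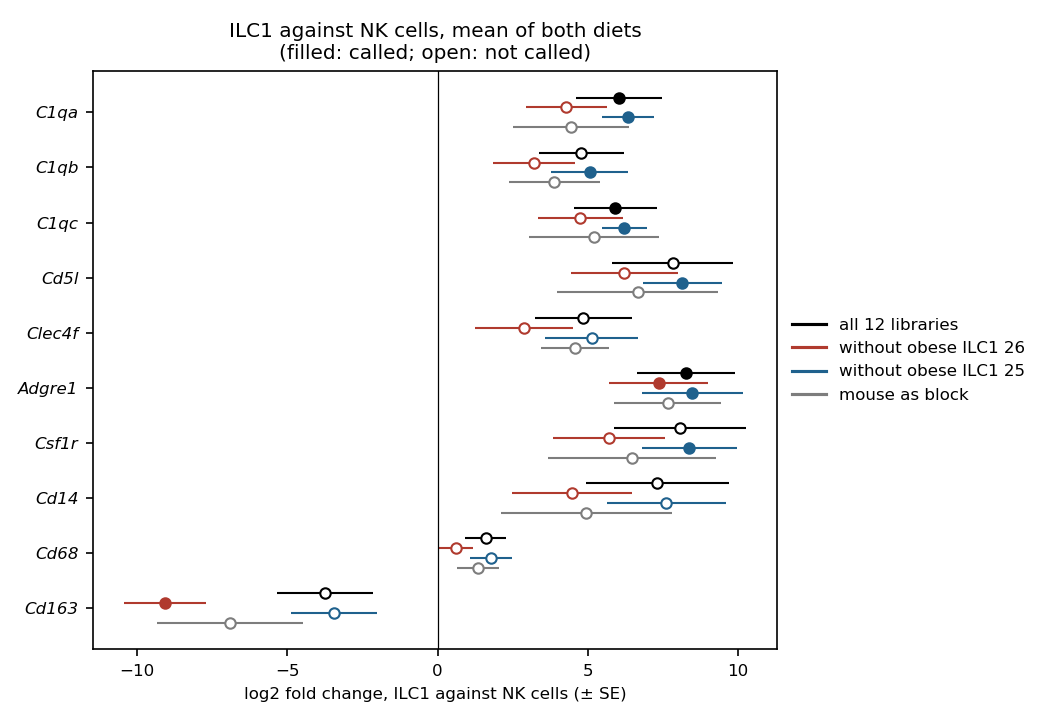
Log2 fold change of ILC1 against NK cells (mean of both diets) with its SE for the 10 transcripts, in all 12 libraries, without obese ILC1 26, without obese ILC1 25 and with the mouse as a block. Filled points were called and open points were not. The 9 transcripts other than Cd163 lay to the right of 0 in each fit, and Cd163 moved from -3.75 to -9.07 when obese ILC1 26 was left out.

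Within lean mice 0 of 10 transcripts were called in either direction, against 1.5% of genes called higher and 0.806% called lower in ILC1, and the unadjusted p was under 0.05 for 5 of them, beside 346 of the 2606 genes. DESeq2 called 4 of them and 151 genes in all, and the likelihood-ratio test 3 and 122. C1qa, C1qc and Cd5l were higher in all 3 lean ILC1 than in all 3 lean NK libraries, where 13.6% of genes showed such a gap, although Cd5l in lean ILC1 27 was at 1 count, under the floor. Cd163 was lower without overlap, where 11.4% of genes were, by a log2 fold change of -8.66 ± 2.81 (SE, edgeR adjusted p = 0.187). The same Cd163 difference was called when the 6 lean libraries were fitted alone (-8.65 ± 1.59 on the log2 scale, edgeR adjusted p = 0.0260) and when obese ILC1 26 was left out (-8.68 ± 1.56, edgeR adjusted p = 0.0111). Cd163 reached 10 counts in all 6 NK libraries and passed the filter on low counts through NK cells, so that these calls are descriptions. Within obese mice 0 of 10 were called, against 0.537% of genes called higher and 0.384% called lower, and the unadjusted p was under 0.05 for 9, beside 369 of the 2606 genes. DESeq2 called 7 of them and 154 genes in all, and the likelihood-ratio test 5 and 122. Adgre1, C1qb, Cd68 and Clec4f were higher in all 3 obese ILC1 than in all 3 obese NK libraries, where 9.4% of genes were. Cd68 was higher by a log2 fold change of 4.59 ± 1.08 (SE, edgeR adjusted p = 0.0727). Without obese ILC1 25, C1qa, C1qc and Cd5l were called, beside 66 of 2809 genes. Without obese ILC1 26 the unadjusted p was under 0.05 for 3 of 10 (Adgre1, Cd68 and Cd163), beside 397 of 2698 genes, and the median log2 fold change of the 10 was 3.28, beside 7.0 with it. Cd68 was then at 2.66, C1qa at 3.49 and Cd163 at -9.46 on the log2 scale.

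The diet comparisons address whether these transcripts changed in obesity. Between obese and lean NK cells 0 of 10 were called in either direction by edgeR, against 0% and 0% of all genes, and 0 of 10 had an unadjusted p under 0.05, beside 31 of the 2606 genes. C1qc, Cd14, Cd5l and Csf1r were higher in all 3 obese than in all 3 lean NK libraries, where 9.9% of genes were. DESeq2 called 2 of them, Cd5l and Csf1r, with all lean NK libraries at 0, and the likelihood-ratio test 0. Some other gene lists were also higher without overlap in obese NK cells, and the rest overlapped. The ranges of other Kupffer cell genes overlapped, at 0.0283% to 0.0435% in lean and 0.0412% to 0.0528% in obese NK cells. Those of the complement, endothelial, B cell, T cell and stellate cell lists overlapped too. The 12 genes of the hepatocyte list made up 0.00228% to 0.0108% of counts in lean NK cells and 0.0113% to 0.0481% in obese NK cells, and all 12 libraries held Alb. ILC1 markers made up 0.00337% to 0.00723% in lean and 0.0128% to 0.0391% in obese NK cells. Dendritic cell markers made up 0.00379% to 0.0111% and 0.0115% to 0.0312%. In obese NK cells Cd83 held 238, 790 and 239 of the 296, 882 and 290 counts of the dendritic cell list. Neutrophil markers were at most 5.42e-05% in lean and between 0.000248% and 0.00234% in obese NK cells. Other macrophage and monocyte genes made up 0.283% to 0.413% and 0.488% to 0.533%, nearly all from Ccr2, which NK cells also express. Ccr2 held 5750 to 8071 of the list's 6049 to 8338 counts in lean NK cells. In obese NK cells it held 10879 to 13863 of 11264 to 14193. For Cd200r1, an ILC1 marker, the paper reports higher transcript and higher CD200R1 protein in obese than in lean NK cells. The part of RNA from other cell types in any of these differences was not tested.

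Between obese and lean ILC1 0 of 10 transcripts were called by edgeR in either direction, against 0% and 0% of all genes, while the unadjusted p was under 0.05 for 9 of 10 and for 277 of the 2606 genes. All 10 log2 fold changes were positive, with a median of 5.61 beside 0.02 for all genes tested. These values rested on obese ILC1 26. Without it the 10 ran from -2.81 (Cd163) to 3.67 (Adgre1) with a median of 1.96, beside -0.13 for all genes, Cd14 was at 0.0074, and the unadjusted p was under 0.05 for 1 of 10, Cd68 (3.19 ± 0.860, SE, edgeR adjusted p = 0.305), and for 266 of 2698 genes. Adgre1, Cd68 and Clec4f were higher in all 3 obese than in all 3 lean ILC1 libraries, where 7.29% of genes were. Cd68 had a log2 fold change of 5.10 ± 1.11 (SE, edgeR adjusted p = 0.208), and was called by edgeR's likelihood-ratio test and, together with Cd163, by DESeq2. Cd163 had a log2 fold change of 7.79 ± 2.73 (SE, edgeR adjusted p = 0.308), which rested on obese ILC1 26 and turned to -2.81 without it. The obese effect in ILC1 was set against that in NK cells as an interaction, in which 0 of 10 were called in either direction, against 0% and 0% of all genes, and in which Cd68 and Cd163 alone had an unadjusted p under 0.05. For Cd68 the effects differed by 5.99 ± 1.43 on the log2 scale (SE, edgeR adjusted p = 0.647). The likelihood-ratio test called Cd68 in this interaction, and DESeq2 called Cd68, Cd5l and Csf1r. For Cd5l and Csf1r the direction was opposite to that of Cd68, and all lean NK libraries were at 0. Their DESeq2 log2 fold changes were 20.9 and 20.6 between obese and lean NK cells, and 5.97 and 6.47 between obese and lean ILC1. In edgeR the effects of Cd5l and Csf1r differed by -1.25 and -0.45 on the log2 scale.

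RNA from 1 source of constant make-up would keep 1 ratio of the 10 transcripts in every library, apart from counting and amplification error. Where the ratios differed, the number of sources was not tested. The 3 C1q chains were compared first. C1qb made up 71.6% of C1q counts in obese ILC1 26 (interval 70.4% to 72.8%), 63.6% in obese ILC1 27 (60.7% to 66.5%), 76.8% in lean ILC1 25 (70.9% to 82.1%) and 75.9% in lean ILC1 26 (67.8% to 82.9%). In obese NK cells the shares were 83.8% (73.8% to 91.1%), 71.0% (52.0% to 85.8%) and 75.8% (63.3% to 85.8%). The intervals of these 7 libraries overlapped with that of at least 1 other, but those of obese ILC1 26 and 27 did not overlap with each other. Nor did their C1qc shares, 11.7% (10.9% to 12.5%) and 22.8% (20.3% to 25.4%). A pair of libraries stood apart. Lean ILC1 27 had 0 of 43 C1q counts from C1qb (interval up to 8.22%), obese ILC1 25 had all 74 of its counts from C1qb (95.1% to 100%). Lean NK 25, with 28 of 29 counts from C1qb, had an interval (82.2% to 99.9%) that reached that of obese NK 25. Obese ILC1 25 was 1 of the 2 libraries with the fewest genes detected.

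The composition of all 10 transcripts separated NK cells from ILC1. Cd68 and Cd163 together made up most of the counts in all 3 lean NK libraries, Cd163 61.6% (interval 55.3% to 67.6%), 44.4% (36.6% to 52.4%) and 65.0% (62.2% to 67.6%), and Cd68 27.1%, 40.1% and 35%. In obese NK cells Cd163 made up 26.5%, 32.9% and 27.2% of a sum that also held the C1q chains, Cd5l, Csf1r and Cd14. In ILC1 Cd163 was at most 1.10% of the counts, in obese ILC1 26 (0.982% to 1.23%). Obese ILC1 26, with 29027 counts of the 10 transcripts (1.58% of its counts), and obese ILC1 27, with 2993 (0.118%), had similar shares of Adgre1, 7.30% and 7.22%, but Clec4f was 19.98% (19.5% to 20.4%) in the first and 6.92% (6.03% to 7.88%) in the second. Obese ILC1 25 and lean ILC1 27 resembled each other in that Cd68 (46.9% and 37.8%) and Adgre1 (32.7% and 36.0%) led and Csf1r and Cd14 had 0 counts.

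**Figure D3:**
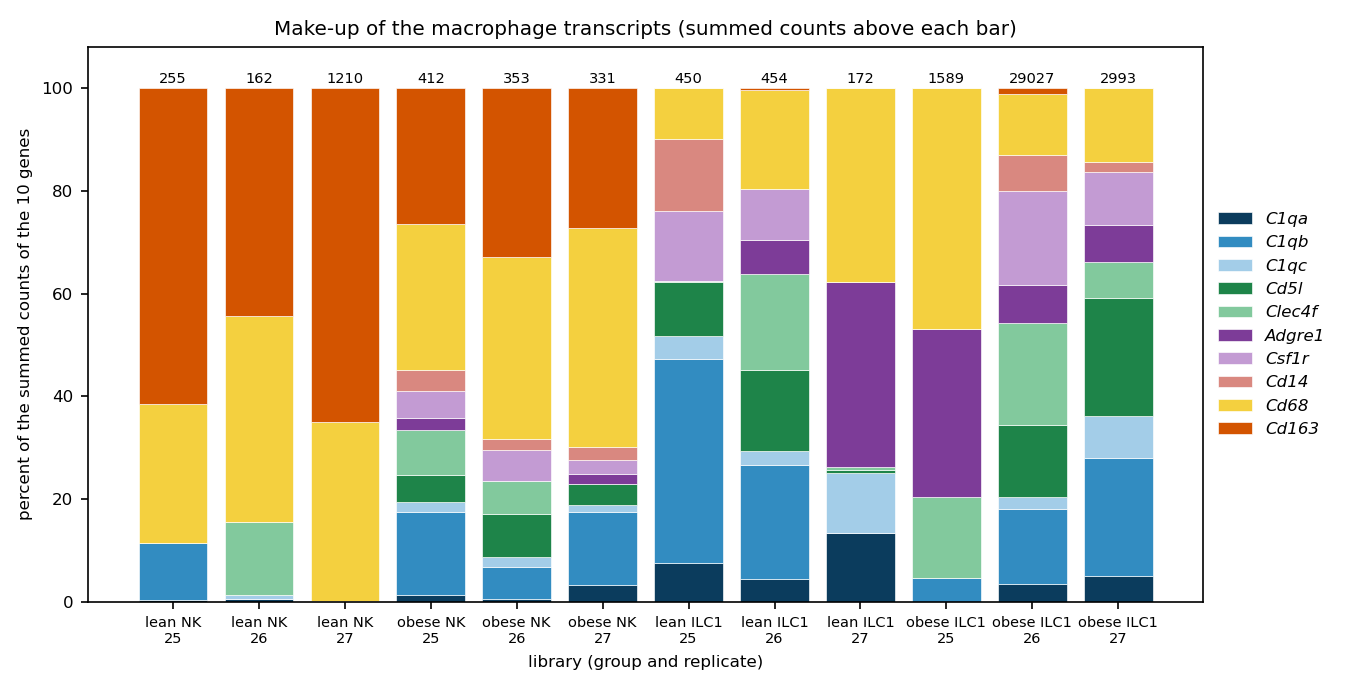
Share of each transcript in the summed counts of the 10 (percent), 1 bar per library, with the sum printed above each bar. Cd163 and Cd68 filled most of the bars of the 3 lean NK libraries, and Cd163 was at most 1.10% in the ILC1 bars.

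The ratio of each of the 7 other transcripts to the summed C1q counts was then compared between ILC1 and NK cells, as the log2 of (count + 0.5) over (C1q + 0.5), by a two-sided exact permutation test of 6 libraries against 6. In all, 7 ratios were tested, p-values are not adjusted, and the smallest p this design allows is 0.00216. The Cd163 ratio was 3.20 ± 3.28 (SD, n = 6) in NK cells and -7.26 ± 2.43 (n = 6) in ILC1 on the log2 scale, a difference of -10.5 without overlap (exact permutation p = 0.00216, the smallest possible). It stayed between -11.1 and -9.29 when any 1 library was left out, obese ILC1 26 included, and the sign flips of the 6 within-mouse differences gave an exact p of 0.0313, also the smallest possible. The Cd68 ratio was lower in ILC1 by a log2 difference of -3.16 (exact permutation p = 0.0498). This p rose to 0.0938 within mice and to 0.221 when C1qb alone was the reference. With 1 library left out the difference ran from -3.87 to -2.13, and the permutation p was no longer under 0.05 in 8 of the 12 cases. The lean NK libraries held 29, 2 and 1 C1q counts, which sets the size of both ratios in that group.

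The other 5 ratios did not pass the test. The log2 differences between ILC1 and NK cells were -0.44 for Cd5l (exact permutation p = 0.784), -0.11 for Clec4f (exact permutation p = 0.9502), 1.77 for Adgre1 (exact permutation p = 0.335), -0.70 for Csf1r (exact permutation p = 0.675) and -2.11 for Cd14 (exact permutation p = 0.132). With SDs between 1.57 and 3.92 in each population, these values do not show that the ratios were equal. In the 10 libraries with at least 20 C1q counts, single libraries differed by more than counting error. Cd5l per C1q count was 0.679 (interval 0.653 to 0.707) in obese ILC1 26 and 0.638 (0.579 to 0.703) in obese ILC1 27, which overlap, but 0.202 (0.144 to 0.277) in lean ILC1 25 and 0 (up to 0.0511) in obese ILC1 25. Clec4f per C1q count was 3.38 (2.60 to 4.44) in obese ILC1 25, 0.977 (0.942 to 1.01) in obese ILC1 26, 0.191 (0.164 to 0.222) in obese ILC1 27 and 0.00429 (0.000108 to 0.0241) in lean ILC1 25. Adgre1 per C1q count was 7.03 (5.50 to 9.09) in obese ILC1 25 and 1.44 (0.962 to 2.18) in lean ILC1 27, and between 0 and 0.357 in the other 8. Csf1r per C1q count was 0.893 (0.861 to 0.927) in obese ILC1 26 and 0.287 (0.252 to 0.326) in obese ILC1 27, and 0 in both lean ILC1 27 and obese ILC1 25. The counts come from amplified low input libraries, and reads copied from 1 molecule are not independent, so that these intervals are narrower than the full technical error.

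**Figure D4:**
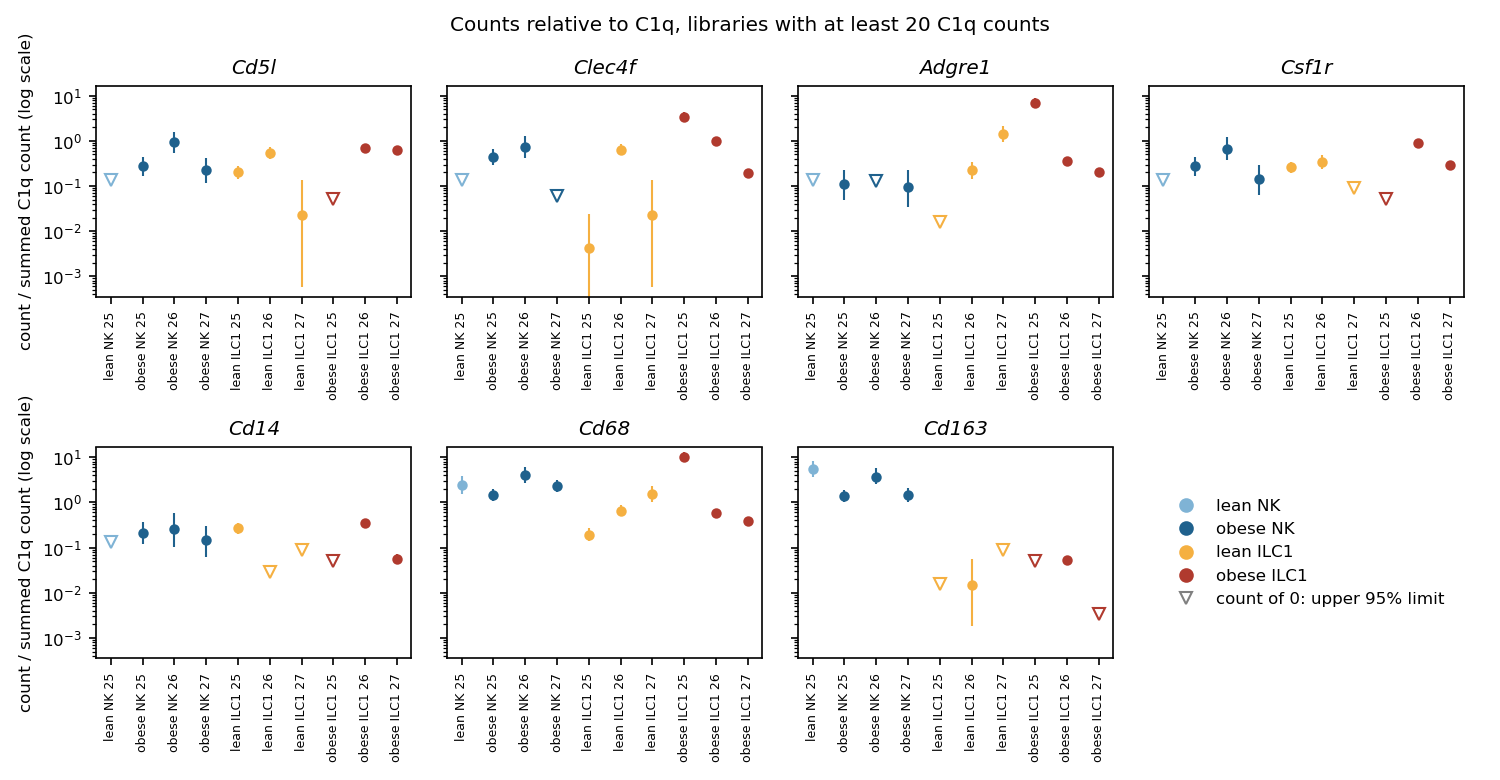
Count of each of 7 transcripts divided by the summed count of C1qa, C1qb and C1qc (log axis) in the 10 libraries with at least 20 C1q counts. Bars are exact 95% intervals of counting error, and open triangles give the upper limit where the count was 0. Cd163 lay above 1 in all 4 NK libraries shown and below 0.1 in all 6 ILC1 libraries.

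The genes whose pattern was most like that of C1q were sought among the other genes tested, by Pearson's r over the 12 libraries between log2 CPM and the mean of the 3 C1q chains. The 8 nearest were Bcl2a1a (r = 0.954), Clec7a (0.933), Aif1 (0.933), Cd300ld (0.931), Ctsh (0.930), Apoe (0.927), Cd300c (0.926) and BC028528 (0.918). Clec7a encodes the beta-glucan receptor Dectin-1, Aif1 the macrophage protein IBA1, Ctsh a lysosomal protease and Apoe the lipid carrier apolipoprotein E. Clec7a had 0 or 1 counts in lean NK cells and 1, 3560 and 391 in obese ILC1. Apoe had 111 to 144 counts in lean NK cells, 548 to 878 in obese NK cells, 416 to 697 in lean ILC1, and 799, 101061 and 6045 in obese ILC1. Without obese ILC1 26 the r values of these 8 genes were between 0.801 and 0.891. Of the 10 transcripts, Csf1r (0.960), Cd5l (0.959) and Cd14 (0.903) followed C1q, Clec4f (0.700), Adgre1 (0.689) and Cd68 (0.572) less closely, and Cd163 (-0.104) did not. The 12 points share library depth and obese ILC1 26, so that these r values are descriptions.

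Other genes of Kupffer cells and macrophages gave a mixed picture. Calls in these lists are from the mean of both diets, in which 3.15% of all genes tested were called higher in ILC1 and 1.19% lower. Of 10 other Kupffer cell genes 5 had enough counts to be tested. Adgre4, Axl and Cd38 were called higher in ILC1 than in NK cells and 0 lower. Adgre4 and Axl were low in NK cells and passed the filter on low counts mainly through ILC1, and nothing is read from the number called. Adgre4, an adhesion receptor gene related to Adgre1, had 638, 3184 and 696 counts in obese ILC1 and at most 32 in any NK library. In lean ILC1 it had 127, 0 and 0 counts, and it was not called within lean mice (edgeR adjusted p = 0.329). Axl, a receptor for dying cells, had 139 to 224 counts in lean ILC1 and 0 to 12 in NK cells. Cd38, an NAD-consuming enzyme gene that lymphocytes also express, had 2873 to 3698 counts in all ILC1 and 553 to 1188 in all NK cells. It carried most of this list's counts in every library but obese ILC1 26, where it held 3359 of 9529. Of 15 tested genes of the macrophage and monocyte list, Cybb and Clec4a3 were called higher in ILC1 and 0 lower. Cybb, which encodes a subunit of the phagocyte NADPH oxidase, had 10, 0 and 2 counts in lean NK cells, 193, 49 and 66 in lean ILC1, and 238, 12422 and 896 in obese ILC1. Ccr2, a chemokine receptor gene of monocytes that NK cells also express, had 5750 to 13863 counts in NK cells and 3540 to 6294 in ILC1. Of 14 tested complement genes outside C1q 0 were called in either direction, and their median log2 fold change was 1.86. Cfb and C3, plasma complement genes of the liver, had 9900 and 7069 counts in obese ILC1 26 and at most 318 and 64 in any other library.

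Markers of several other cell types, but not those of T cells, moved with the macrophage transcripts in obese ILC1 26. Hepatocyte markers made up 10.3% of its counts and 0.00228% to 0.0660% in the other 11 libraries, and liver endothelial markers 0.904% against 0.0109% to 0.0384%. Neutrophil markers made up 0.297% against at most 0.00234%, stellate cell markers 0.0292% against at most 0.00364%, and B cell markers 0.715% against 0.137% to 0.183%. T cell markers were 0.321% of its counts and ran from 0.268% to 0.9495% in the other ILC1, and from 0.0485% to 0.116% in NK cells. In lean ILC1 1 gene, Cd3g, held 12045, 13149 and 13275 of the 14397, 18075 and 15168 counts of the T cell list. In obese ILC1 it held 10266, 1991 and 2875 of 12852, 5888 and 6803. Dendritic cell markers were 0.287% of its counts and 0.185% in obese ILC1 27, against at most 0.0570% elsewhere. The 2 ILC1 markers, Cxcr6 and Cd200r1, made up 0.222% of its counts and 0.881% to 1.43% in the other 5 ILC1. In the mean of both diets 3.15% of all genes tested were called higher in ILC1 and 1.19% lower. Beside these, 2 of 9 tested hepatocyte markers (Apoc1 and Apoc3) and 1 of 5 B cell markers (Cd79b) were called higher. So were 3 of 7 T cell markers (Cd3d, Cd3e and Cd3g) and both ILC1 markers. Of 4 endothelial, 1 neutrophil, 3 dendritic and 2 stellate cell markers 0 were called, and 0 were called lower in all these lists. Nothing is read from these numbers. The part of these cells' RNA in the macrophage counts of obese ILC1 26 was not tested, and the values without that library are those given above. In obese ILC1 25 and 27 Adgre1 (520 and 216 counts), Clec4f (250 and 207) and Cd68 (745 and 428) were above every lean ILC1 library. Hepatocyte markers were also above them, at 0.0660% and 0.0203% against 0.0113% to 0.0142%. The dendritic cell list was too, at 0.0570% and 0.185% against 0.0137% to 0.0209%, but mostly through 1 gene, Cd83. Cd83 held 946 of the 950 list counts in obese ILC1 25 and 4557 of 4708 in obese ILC1 27. Ccr7, of the same list, had 0 and 8 counts there and 0, 18 and 0 in lean ILC1. The part of RNA from these cell types in the macrophage counts was not tested.

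**Figure D5:**
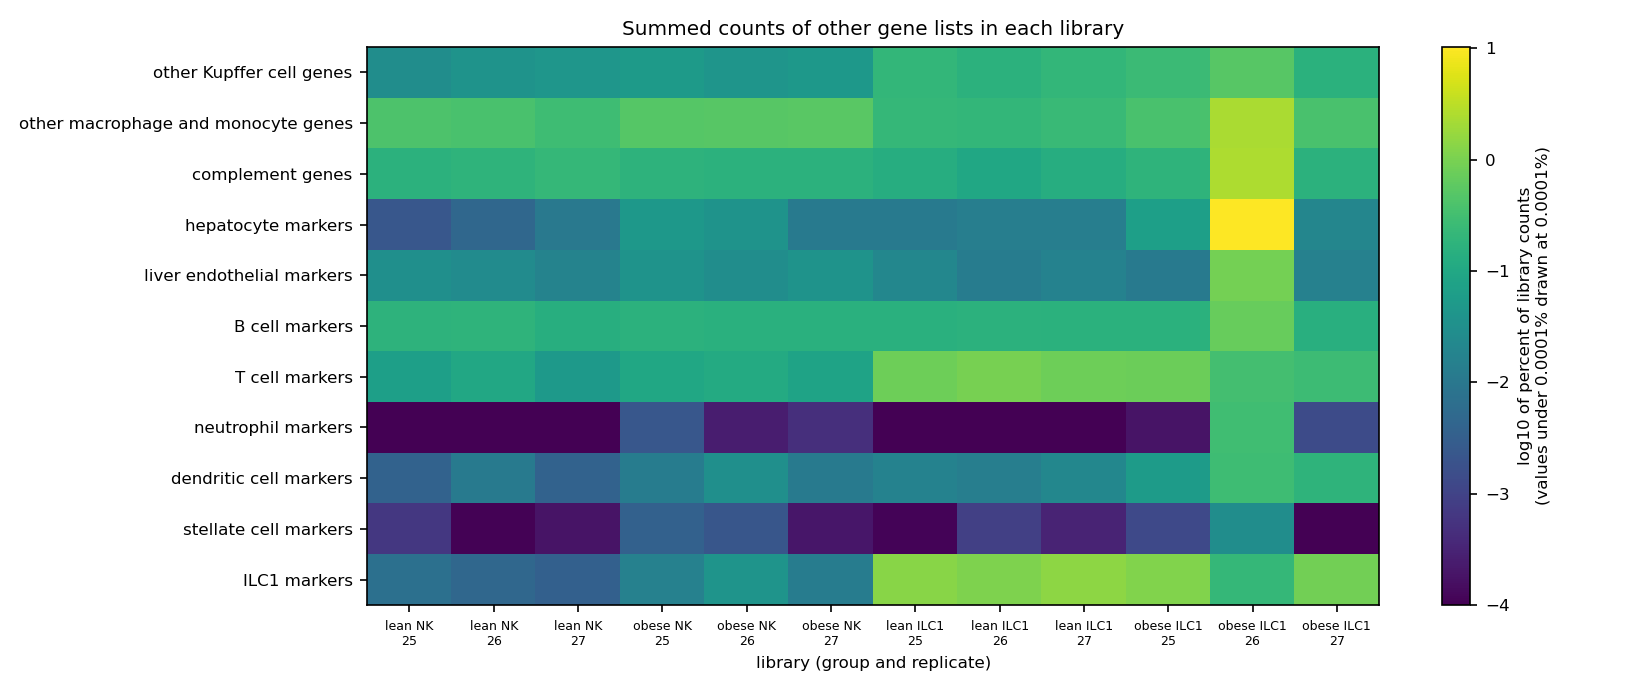
Summed counts of each list of other genes as a percentage of the library's counts (color, log10 scale) in the 12 libraries. Obese ILC1 26 is the brightest column for hepatocyte (10.3%), endothelial (0.904%), neutrophil and stellate cell markers, and is darker than the other ILC1 for ILC1 markers (0.222%).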

How the data were processed

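RNA-seq of 12 libraries of sorted mouse liver NK cells and ILC1, made from 2 ng of total RNA each with a low input kit, was analysed. The authors deposited whole-number counts per gene, and beside them a score, the same counts divided by 1 factor per library (0.570 to 1.52) and rounded, called the normalized count here. The submitters' processing notes name bcl2fastq 2.19, Trimmomatic 0.36.5, STAR 2.5.2b, featureCounts 1.6.0.2 and the build mm10; the annotation and strand setting are not given in the sources used here. The genes analysed were the 5545 with complete rows, in alphabetical order as far as Cyp26b1; a further row that was incomplete was not used, later genes were not analysed here, and totals per library understate the depth.

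Groups and replicate numbers came from the labels. The 10 transcripts, the 11 other gene lists and the tests were chosen with earlier results of these data known. Counts were tested with edgeR 4.0.16 (TMM, filterByExpr, quasi-likelihood test, 6 comparisons in 1 model) in R 4.3.3, and DESeq2 1.42.0 was an alternative. SEs are the log2 fold change over the root of F. Ratios were tested by exact permutation (Python 3.11.15), and the tests were tested on simulated data. NK cells and ILC1 with 1 number and diet are labelled as from 1 mouse; the deviations of such pairs from their group means correlated at -0.0761 to 0.140. No 2 libraries of a group agreed within sampling noise. Genes named besides the 10 are the 8 most like C1q, up to 4 per list by mean level, called list members, and Alb, Cxcr6 and Cd200r1. Exon lengths and positions came by symbol from GENCODE, promoters from RefSeq. Alternatives were the likelihood-ratio test, DESeq2, DESeq2 size factors, no filter, the compared libraries alone, no fold threshold, the mouse or number as block, each library left out, and, for ratios, a pseudocount of 1 and C1qb as reference. Leaving out both sparse libraries together was chosen after seeing the data.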

Additional observations from a re-analysis of the deposited data

How the results depend on the processing

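The numbers of genes and of the 10 transcripts called depended on the test. In the mean of both diets, where 113 genes and 3 transcripts were called, the likelihood-ratio test called 232 and 7, DESeq2 222 and 6, the fit with the mouse as a replicate block 46 and 0, and the fit without lean NK 27 and obese ILC1 25 (chosen after seeing the data) 203 and 6. In lean mice (60 and 0) these gave 122 and 3, 151 and 4, 21 and 0, and 112 and 0, and the lean libraries alone called 1 transcript. In obese mice (24 and 0) they gave 122 and 5, 154 and 7, 0 and 0, and 133 and 6, and the obese libraries alone called 0 genes. For obese against lean NK cells (0 and 0) the likelihood-ratio test called 2 genes and DESeq2 8 genes and 2 transcripts. For obese against lean ILC1 (0 and 0) they called 57 and 1, and 77 and 2, and the fit without both sparse libraries 18 and 2; for the interaction (0 and 0) 9 and 1, 21 and 3, and 2 and 0. The replicate block by number changed no call of the obese against lean comparisons, where equal numbers are different animals. The cause of these changes was not tested.

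With 1 library left out, genes called ran from 63 to 161 in the mean of both diets, 29 to 102 in lean and 5 to 66 in obese mice, 0 to 1 for NK cells, 0 to 6 for ILC1 and 0 to 1 for the interaction, and transcripts called from 0 to 6, 0 to 1, 0 to 3, and 0 in the rest. Directions that turned, all uncalled, were Cd163 in obese mice (-5.44 with the mouse block, -9.46 to 1.76 with 1 library left out), for obese against lean ILC1 (-2.81 to 10.55) and in the interaction (-0.78 to 12.6), Cd68 in lean mice (-1.79 to 0.019; 0.020 without both sparse libraries) and in NK cells (-1.29 to 0.54; 0.53 without both), and Clec4f in lean mice (-2.80 to 7.98). Ratios to C1q turned for Cd5l (0.37 against C1qb alone; -1.15 to 0.46 with 1 library left out), Clec4f (0.69; -1.08 to 0.96) and Csf1r (0.11; -1.38 to 0.11). Cd14 could not be compared in lean mice without lean ILC1 25, since all its other counts there were 0. Totals of 1666637 to 2826766 counts leave transcripts at 3 counts or fewer undetected.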

Other observations

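Genes that resembled Cd163 were looked up after its values were seen. Over the 12 libraries, Cyp17a1, a steroid-synthesis enzyme gene (r = 0.989), and Apobec2 (r = 0.965) followed it closely in log2 CPM. Cyp17a1 had 183, 135 and 358 counts in lean NK cells and 140, 86 and 98 in obese NK cells, but 0, 2 and 0 in lean ILC1 and 0, 432 and 0 in obese ILC1. Neither gene is in the gene lists used here, and with 1 library, obese ILC1 26, holding nearly all Cd163 and Cyp17a1 counts of the ILC1, these values are given as a description.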
